A study of Mus musculus with 20 samples.

Results

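Complement is a set of proteins that tag microbes and dying cells, call in phagocytes and lyse membranes, and macrophages make several of them in tissues. C1q, built from A, B and C chains, starts the classical pathway when it binds antibody or a target surface. C3 is the component that every pathway cleaves, while factor B forms the protease of the alternative pathway's amplifying convertase and properdin stabilises that convertase. The cleavage fragments C3a and C5a act on macrophages through the receptors C3aR and C5aR1, and C1 inhibitor blocks the proteases of the C1 complex.

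The 9 complement genes described here were taken by symbol from a table of 17787 mouse genes, and each matched 1 row: the C1q chain genes C1qa, C1qb and C1qc, the component gene C3, Cfb (factor B), Cfp (properdin), the receptor genes C3ar1 and C5ar1, and Serping1 (C1 inhibitor). RNA-seq was carried out on bone marrow-derived macrophages of male wild type C57BL/6J mice, grown for 7 days in medium with supernatant of L929 cells and then transfected with siRNA at 50 nM for 48 h. The siRNA was directed against Brg1, the ATPase of BAF (SWI/SNF) chromatin remodelling complexes encoded by Smarca4, or was a control siRNA, with 1 product in each arm. During the last 6 h the cells received 1 µM dexamethasone (Dex, a synthetic glucocorticoid) with 100 ng/ml bacterial lipopolysaccharide (LPS), LPS with 0.1% ethanol, or a vehicle of 0.1% ethanol and 0.1% D-PBS. The groups held 4 Brg1 siRNA and 4 control siRNA libraries in Dex+LPS, 3 and 3 in LPS, and 3 and 3 in vehicle. No source used here says whether replicates came from separate animals or cultures, so p-values measure the spread between these samples only, which may be technical.

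Libraries held 13694895 to 18707709 assigned reads. Smarca4 had 413.6 to 518.0 normalized counts in Brg1 siRNA Dex+LPS libraries against 1745.2 to 2181.5 in control siRNA Dex+LPS libraries. It had 559.5 to 620.9 against 2751.0 to 2989.8 under LPS, and 340.2 to 365.2 against 1475.6 to 1626.1 in vehicle, so every Brg1 siRNA library lay below every control siRNA library. The labels fit macrophages, since all 11 macrophage markers examined were present, whereas the B cell marker Pax5, the T and NK cell markers Cd3e, Cd3d, Nkg7 and Ncr1, and the fibroblast genes Col1a1, Col1a2, Col3a1 and Lum were at 0 or not listed. The summed level of the macrophage markers moved with the knockdown, at 453254 to 462608 normalized counts in Brg1 siRNA against 335809 to 373167 in control siRNA libraries under Dex+LPS, 530307 to 543615 against 333545 to 353059 under LPS, and 408050 to 417633 against 310040 to 320820 in vehicle. Lyz2 and Mpeg1 made up most of that sum, with means of 200859 and 114047 in Brg1 siRNA against 142359 and 70701 in control siRNA vehicle libraries. Of the 11 markers, 7 were higher and 2 lower with Brg1 siRNA under Dex+LPS, 6 and 1 under LPS, and 4 and 2 in vehicle, with median log2 fold changes of 0.34, 0.33 and 0.04. By the same limma test, described below, 19.0% of all genes were higher and 15.3% lower under Dex+LPS. Under LPS 17.3% and 15.8% were, and in vehicle 9.39% and 10.8%. Neutrophil markers were all listed and summed to 504.2 to 565.1 in Brg1 siRNA against 352.7 to 485.2 in control siRNA libraries under Dex+LPS, 301.7 to 317.8 against 251.4 to 302.0 under LPS and 105.6 to 128.7 against 67.8 to 112.7 in vehicle. B cell markers summed to 3.7 to 10.3 against 94.6 to 148.5, 11.2 to 22.7 against 71.0 to 108.7, and 53.2 to 70.8 against 629.8 to 703.1 in the same 3 pairs, most of it from the immunoglobulin gene Ighm. Dendritic cell markers summed to 8.6 to 42.1 in Brg1 siRNA and 13.4 to 56.4 in control siRNA libraries over all treatments, T and NK cell markers to 0.8 to 18.2 and 1.2 to 9.2, and fibroblast markers to 0.0 to 11.4 and 0.0 to 8.6. The part of these markers in the results below was not tested, and in bulk RNA fewer cells of a type and less RNA per cell cannot be told apart. Sample description numbers fall into a lower and a higher series, and 4 libraries carry the higher one: Brg1 siRNA Dex+LPS replicate 4, control siRNA Dex+LPS replicate 4, Brg1 siRNA LPS replicate 2 and control siRNA LPS replicate 3.

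The C1q genes lie side by side on the minus strand of chromosome 4 in GRCm38, at chr4:136895917-136898803 (C1qa), chr4:136889804-136893065 (C1qc) and chr4:136880129-136886187 (C1qb), within 18675 bases. The other members, also on minus strands, are C3 at chr17:57203970-57228136, Cfb at chr17:34856374-34862518, Cfp at chrX:20925454-20931555, C3ar1 at chr6:122847138-122856161, C5ar1 at chr7:16246743-16259540 and Serping1 at chr2:84765387-84775444. Promoter windows of 300 bases (250 before to 50 after the RefSeq start, GRCm38.p6, minus strand, written 5′ to 3′) are shown for the members whose RNA levels set the pattern below: C3 and C3ar1, which kept 1 direction with the knockdown, C5ar1, which changed direction with treatment, and C1qb and C1qc, the neighbours of C1qa that moved less. The windows are C3 at chr17:57228087-57228386, C3ar1 at chr6:122856108-122856407, C5ar1 at chr7:16259289-16259588, C1qb at chr4:136886151-136886450 and C1qc at chr4:136892865-136893164. Capitals mark matches to any of 7 searched motifs, described in the next paragraph.
C3: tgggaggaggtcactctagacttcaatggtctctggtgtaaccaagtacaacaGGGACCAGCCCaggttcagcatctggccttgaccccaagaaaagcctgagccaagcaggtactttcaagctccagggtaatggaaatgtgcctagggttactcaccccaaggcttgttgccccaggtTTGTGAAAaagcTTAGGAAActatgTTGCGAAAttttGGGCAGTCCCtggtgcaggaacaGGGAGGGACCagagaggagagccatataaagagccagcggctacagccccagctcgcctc
C3ar1: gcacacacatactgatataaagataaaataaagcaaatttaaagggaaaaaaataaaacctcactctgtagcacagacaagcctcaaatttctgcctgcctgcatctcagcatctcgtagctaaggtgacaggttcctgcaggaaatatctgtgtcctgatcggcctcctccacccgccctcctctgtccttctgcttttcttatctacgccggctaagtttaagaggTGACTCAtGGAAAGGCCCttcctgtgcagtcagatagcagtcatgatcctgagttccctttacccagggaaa
C5ar1: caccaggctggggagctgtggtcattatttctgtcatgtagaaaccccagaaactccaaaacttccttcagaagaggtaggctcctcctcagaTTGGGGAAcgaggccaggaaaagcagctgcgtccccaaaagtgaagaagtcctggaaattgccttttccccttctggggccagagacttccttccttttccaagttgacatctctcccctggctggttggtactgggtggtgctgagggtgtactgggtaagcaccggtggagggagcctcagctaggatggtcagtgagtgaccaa
C1qb: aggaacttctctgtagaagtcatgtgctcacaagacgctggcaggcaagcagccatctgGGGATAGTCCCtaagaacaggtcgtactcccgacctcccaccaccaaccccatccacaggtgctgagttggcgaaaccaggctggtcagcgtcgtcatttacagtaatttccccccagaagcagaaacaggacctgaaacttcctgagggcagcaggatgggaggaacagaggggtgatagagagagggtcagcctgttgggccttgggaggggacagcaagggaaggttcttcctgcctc
C1qc: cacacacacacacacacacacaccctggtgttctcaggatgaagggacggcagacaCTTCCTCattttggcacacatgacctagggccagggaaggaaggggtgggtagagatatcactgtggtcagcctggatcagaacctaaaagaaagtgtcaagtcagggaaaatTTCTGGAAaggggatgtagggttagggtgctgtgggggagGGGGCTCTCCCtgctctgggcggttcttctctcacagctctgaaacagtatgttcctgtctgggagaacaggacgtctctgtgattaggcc

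Both strands were searched for the interferon-stimulated response element core (GAAA and GAAA with 2 bases between), TTCNNNGAA (gamma-activated site), GAGGAAG (PU.1 core), TGANTCA (AP-1), TTNNGNAA (C/EBP), a loose NF-kappaB frame (GGG and CC with 5 bases between) and the glucocorticoid response element (GNACA and TGTNC with 3 bases between). Counting bases back from the start, the C3 window held 3 C/EBP matches, beginning at -70, -58 and -45, and NF-kappaB frames beginning at -197, -196, -33 and -10, the first pair overlapping on opposite strands. The C3ar1 window held an AP-1 match at -22 to -16 and an NF-kappaB frame at -14 to -5, and the C5ar1 window held a C/EBP match at -157 to -150. The C1qb window held overlapping frames on both strands at -191 and -190, and the C1qc window held the PU.1 core on the other strand at -194, a C/EBP match at -81 and overlapping frames at -41 and -40. The Cfp window, not printed, held a frame at -10. Over 27025 promoter windows of the same length, 40.7% held the C/EBP motif, 50.4% the NF-kappaB frame, 13.5% the PU.1 core, 7.93% the AP-1 motif, 8.47% the gamma-activated site, 3.49% the interferon-stimulated core and 0.463% the glucocorticoid response element. These matches are a description of letters only. Sequences were found for 6 of the 9 members, and C1qa, Cfb and Serping1 are named only.

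Brg1 knockdown moved the complement genes in different directions, and for several of them the direction or size depended on whether LPS was present. C3 was higher with Brg1 siRNA in all 3 treatments, C3ar1 was higher under LPS and Dex+LPS, and C1qa and C5ar1 were lower in vehicle and higher under LPS. Serping1 passed the filter on low values only through the control siRNA LPS group, so counts of calls are given over the other 8 members. With vehicle, 5 of 8 passed the test (limma on log2(normalized count + 1), Benjamini-Hochberg adjusted p under 0.05 over 12061 genes), 2 higher and 3 lower, against 20.1% of all genes (9.39% higher and 10.8% lower). Under LPS 4 passed, all higher, against 33.1% of all genes (17.3% higher and 15.8% lower). Under Dex+LPS 4 passed, all higher, against 34.3% of all genes (19.0% higher and 15.3% lower). The median log2 fold change of the 8 members was 0.29 under Dex+LPS, 0.32 under LPS and 0.005 in vehicle, beside 0.009, 0.008 and 0.005 over all genes tested. These 3 comparisons use separate samples. The members were chosen with earlier results of these data known. The shares thus describe these members and do not test complement genes as a set.

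**Figure D1:**
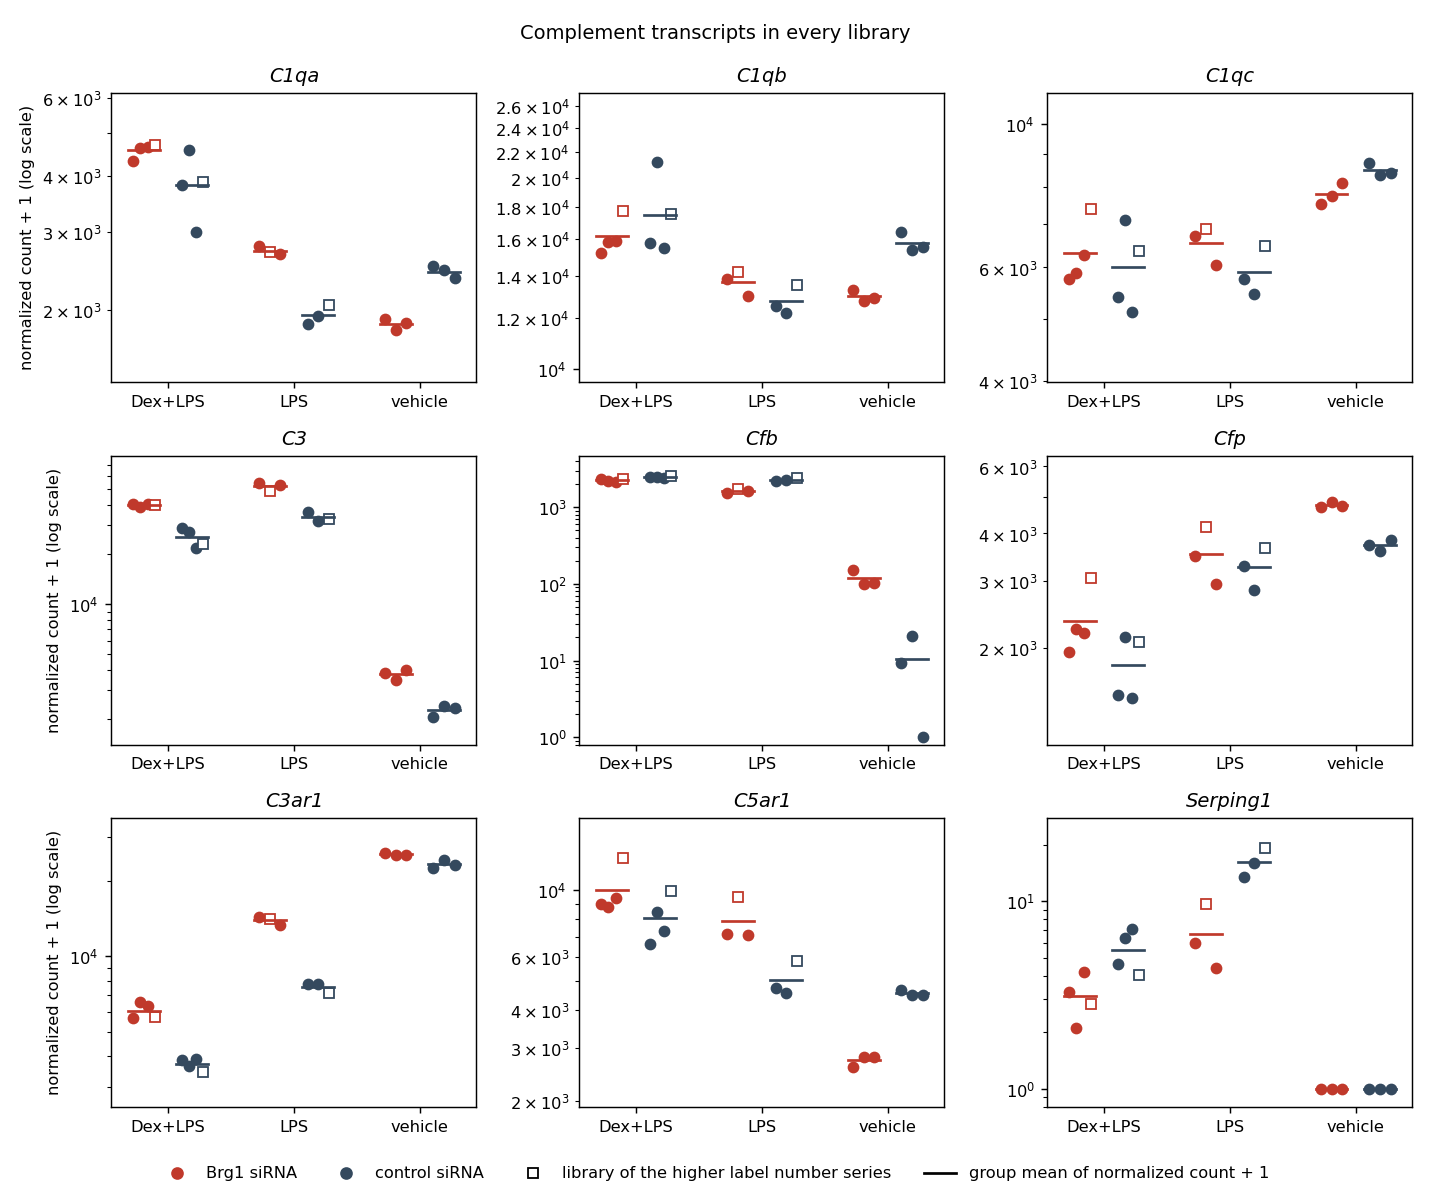
Normalized count plus 1 (log axis, scaled separately for each gene) of the 9 complement genes in each of the 20 libraries, grouped by treatment with Brg1 siRNA (red) left of control siRNA (dark blue). Lines are group means and open squares are the libraries of the higher number series. C3 and C3ar1 separate the siRNA arms under Dex+LPS and LPS with no overlap, whereas C5ar1 libraries of the higher series lie above the others of their group in 4 of 4 groups that have one.

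**Figure D2:**
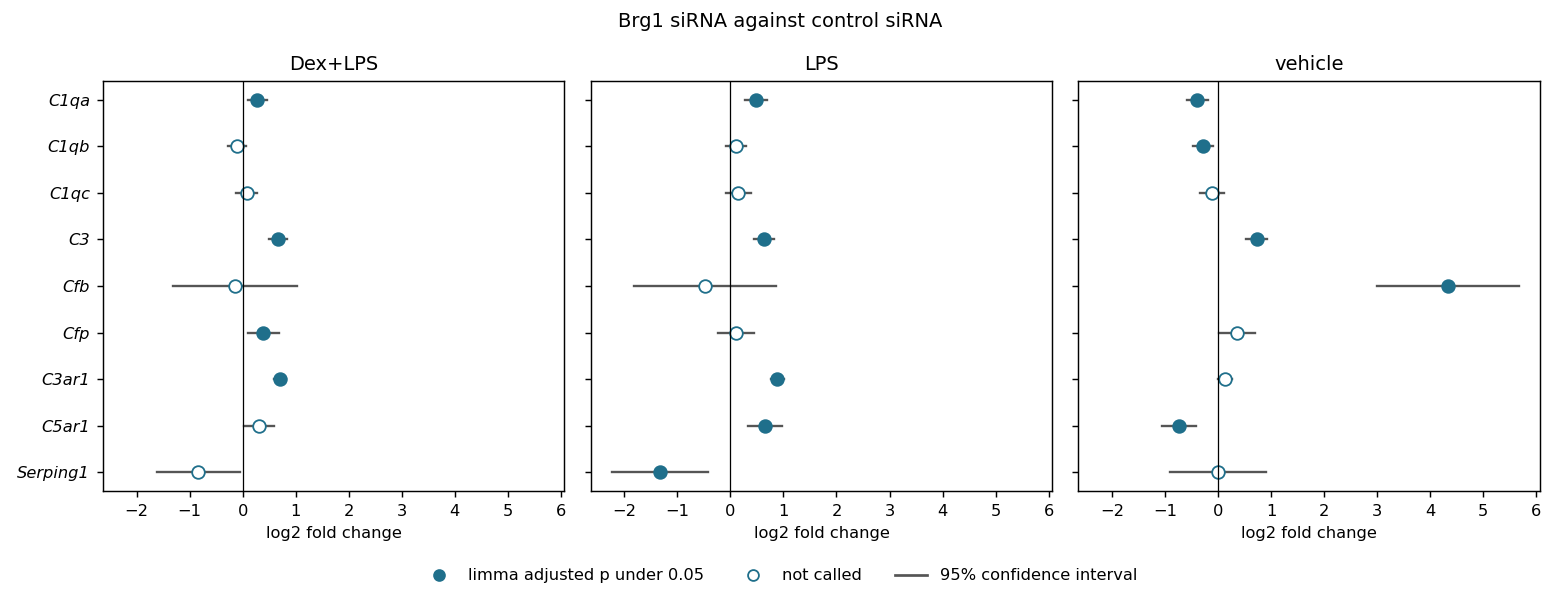
Log2 fold change, Brg1 siRNA against control siRNA, of the 9 complement genes under Dex+LPS, LPS and vehicle, with 95% confidence intervals from limma. Filled points passed an adjusted p of 0.05. C3 lies right of 0 in all 3 panels, C1qa and C5ar1 lie left of 0 only in vehicle, and the interval of Cfb is the widest in each panel. The Serping1 points are a description only, since it passed the filter through 1 group.

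C1qa, the A chain gene of C1q, had 4326, 4628, 4644 and 4698 normalized counts in Brg1 siRNA Dex+LPS libraries, against 3832, 4574, 2990 and 3876 in control siRNA Dex+LPS libraries. It had 2779, 2697 and 2672 in Brg1 siRNA LPS libraries, against 1857, 1933 and 2055 in control siRNA LPS libraries. In vehicle it had 1905, 1804 and 1866 with Brg1 siRNA, against 2507, 2458 and 2357 with control siRNA. All Brg1 siRNA libraries were thus above the controls under LPS and below them in vehicle, while under Dex+LPS 1 control library reached into the Brg1 siRNA range. The knockdown log2 fold change was 0.28 ± 0.085 (SE) under Dex+LPS, 0.48 ± 0.098 under LPS and -0.39 ± 0.098 in vehicle, with limma adjusted p of 0.0172, 0.00097 and 0.00739. The difference between the LPS and vehicle effects was itself past the threshold, at 0.87 (SE 0.139, limma adjusted p = 0.00036). Only the Dex+LPS call was lost under some alternatives: its log2 fold change was 0.22 with edgeR (quasi-likelihood adjusted p = 0.0544) and 0.17 with plain library totals (limma adjusted p = 0.123), and its adjusted p was 0.0637 without the higher number series and 0.11 when only the 2 Dex+LPS groups were fitted.

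The 2 neighbouring chain genes moved less. C1qb had 15206, 15825, 15907 and 17735 normalized counts in Brg1 siRNA Dex+LPS libraries, against 15776, 21197, 15516 and 17509 in control siRNA Dex+LPS libraries. Under LPS it had 13856, 14189 and 13034 with Brg1 siRNA against 12570, 12234 and 13528 with control siRNA, and in vehicle 13293, 12801 and 12915 against 16438, 15380 and 15561. Only in vehicle did the arms separate, with Brg1 siRNA lower by a log2 fold change of -0.28 (SE 0.089, limma adjusted p = 0.0331). That call sits near the threshold: leaving out any 1 of the 6 vehicle libraries gave -0.30 to -0.25 with adjusted p of 0.0595 to 0.116. The C1qb knockdown effect was 0.10 under LPS (limma adjusted p = 0.425) and -0.11 under Dex+LPS (limma adjusted p = 0.322). With plain library totals the Dex+LPS effect passed, at -0.21 (limma adjusted p = 0.0472), where the median of all genes was -0.092. On that scale the LPS effect was -0.038 (limma adjusted p = 0.787), beside a median of -0.123.

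C1qc had 5753, 5890, 6279 and 7381 normalized counts in Brg1 siRNA Dex+LPS libraries, against 5397, 7115, 5122 and 6372 in control siRNA Dex+LPS libraries. It had 6705, 6871 and 6059 in Brg1 siRNA LPS libraries, against 5767, 5464 and 6468 in control siRNA LPS libraries. In vehicle it had 7531, 7732 and 8102 with Brg1 siRNA, against 8700, 8342 and 8394 with control siRNA. The arms overlapped under both LPS treatments and Brg1 siRNA libraries lay lower in vehicle, but in no treatment did C1qc pass the test, with 95% intervals of the log2 fold change of -0.12 to 0.28 under Dex+LPS, -0.08 to 0.38 under LPS and -0.35 to 0.10 in vehicle.

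On a scale of normalized counts per kilobase of exon, the C1qa share of the C1q signal was 19.6% ± 0.84 (SD, n = 4) in Brg1 siRNA and 16.04% ± 1.24 (SD, n = 4) in control siRNA libraries under Dex+LPS. It was 14.1% ± 0.51 and 11.2% ± 0.38 under LPS (SD, n = 3 each), and 10.05% ± 0.15 and 11.04% ± 0.27 in vehicle (SD, n = 3 each). The C1qc share was lowest under Dex+LPS and highest in vehicle, at 14.5% with Brg1 siRNA and 13.6% with control siRNA under Dex+LPS, 18.2% and 18.3% under LPS, and 22.7% and 20.7% in vehicle. C1qb held the rest, 65.9% to 70.5% as a group mean.

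C3, the component cleaved by all pathways, had 40295, 38917, 40591 and 39722 normalized counts in Brg1 siRNA Dex+LPS libraries, against 28936, 27522, 21878 and 23114 in control siRNA Dex+LPS libraries. It had 54174, 48718 and 53096 in Brg1 siRNA LPS libraries, against 36287, 31830 and 32735 in control siRNA LPS libraries. In vehicle it had 3805, 3455 and 3959 with Brg1 siRNA, against 2061, 2403 and 2330 with control siRNA. No 2 of the 6 groups overlapped, and the order of levels was Brg1 siRNA LPS, Brg1 siRNA Dex+LPS, control siRNA LPS, control siRNA Dex+LPS, Brg1 siRNA vehicle and control siRNA vehicle. The knockdown log2 fold change was 0.66 (SE 0.080, limma adjusted p = 4.04e-06) under Dex+LPS, 0.63 (SE 0.092, limma adjusted p = 4.25e-05) under LPS and 0.72 (SE 0.092, limma adjusted p = 1.72e-05) in vehicle. Tests of a difference between these effects did not pass, with 95% intervals of -0.37 to 0.18 for LPS against vehicle and -0.23 to 0.29 for Dex+LPS against LPS. The 3 knockdown calls of C3 held under every alternative run, leaving out single libraries included.

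Cfb, the gene of the alternative pathway protease factor B, overlaps Gm20547 on the same strand, and 75.5% of the 31-base words in its transcripts also occur in Gm20547 transcripts, so the authors' read assignment can split it. In vehicle, Cfb had 150.7, 100.1 and 103.2 normalized counts with Brg1 siRNA against 8.4, 19.9 and 0 with control siRNA. Gm20547 had 0, 0 and 9.4 in those Brg1 siRNA libraries against 14.2, 0 and 18.4 in the control siRNA libraries, and C2, the adjacent gene, had 10.4, 17.2 and 3.4 against 0, 8.3 and 3.5. The control library with no Cfb reads was thus the one with the most Gm20547 reads, and the control library with the most Cfb reads had none of Gm20547. Summed over the 3 genes, a choice made after these values were seen, vehicle libraries had 131.4 ± 25.7 normalized counts with Brg1 siRNA and 24.2 ± 3.5 with control siRNA (SD, n = 3 each). The knockdown log2 fold change in vehicle was 4.33 for Cfb alone (SE 0.637, limma adjusted p = 7.5e-05) and 2.39 for the sum (SE 0.107, limma adjusted p = 4.65e-11), so both passed and the value for the sum was smaller. For Cfb alone the value ranged between 3.06, without control siRNA vehicle replicate 3, and 5.26, without control siRNA vehicle replicate 2, and was 3.601 with edgeR and 3.63 with DESeq2, all past the threshold.

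**Figure D3:**
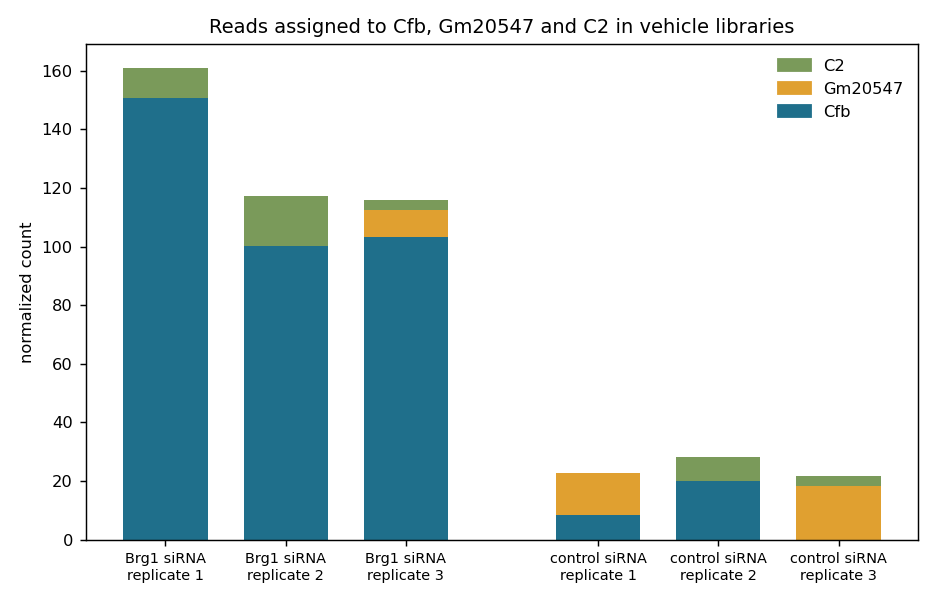
Normalized counts assigned to Cfb, Gm20547 and C2 in the 6 vehicle libraries, stacked (linear axis starting at 0), Brg1 siRNA left of control siRNA. The Brg1 siRNA libraries sum to 116.0 to 161.1 and the control siRNA libraries to 21.8 to 28.2, and in the control arm the split between Cfb and Gm20547 differs between libraries.

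Under LPS the sign of the Cfb difference was the other one. Cfb had 1547, 1728 and 1636 normalized counts in Brg1 siRNA LPS libraries, against 2204, 2253 and 2418 in control siRNA LPS libraries, and the arms did not overlap. The log2 fold change of -0.49 did not pass in the fit over all 6 groups (SE 0.637, limma adjusted p = 0.605), whose spread for Cfb includes the control vehicle libraries. It passed when only the 2 LPS groups were fitted (limma adjusted p = 0.00123), in DESeq2 (adjusted p = 4.54e-08) and for the 3 genes summed (-0.48, SE 0.107, limma adjusted p = 0.00201), but not with edgeR (-0.50, quasi-likelihood adjusted p = 0.0588). Under Dex+LPS, Cfb had 2338, 2212, 2132 and 2320 normalized counts with Brg1 siRNA against 2473, 2503, 2402 and 2563 with control siRNA. All 4 Brg1 siRNA values lay below the control values, with a log2 fold change of -0.14 that did not pass (limma adjusted p = 0.872; for the sum -0.15, limma adjusted p = 0.244). The difference between the knockdown effects under LPS and in vehicle was -4.82 for Cfb (SE 0.901, limma adjusted p = 0.0015) and -2.87 for the sum (limma adjusted p = 1.44e-09).

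Cfp, the gene of properdin, had 1955, 2236, 2192 and 3050 normalized counts in Brg1 siRNA Dex+LPS libraries, against 1507, 2133, 1478 and 2078 in control siRNA Dex+LPS libraries. It had 3497, 4150 and 2948 in Brg1 siRNA LPS libraries, against 3280, 2834 and 3672 in control siRNA LPS libraries. In vehicle it had 4697, 4833 and 4719 with Brg1 siRNA, against 3740, 3600 and 3838 with control siRNA. The arms overlapped under both LPS treatments and separated in vehicle. The knockdown log2 fold change passed narrowly under Dex+LPS (0.39, SE 0.142, limma adjusted p = 0.0407) and was 0.11 under LPS (limma adjusted p = 0.655) and 0.35 in vehicle (limma adjusted p = 0.155). The Dex+LPS call was lost without any 1 of 5 libraries (control siRNA replicates 1 and 3, Brg1 siRNA replicates 2, 3 and 4), at 0.26 to 0.42 with adjusted p of 0.053 to 0.143, and with edgeR (0.36, quasi-likelihood adjusted p = 0.0676). It was also lost with no filter on low values (limma adjusted p = 0.0548) and with plain library totals (0.29, limma adjusted p = 0.143). Fitting only the Dex+LPS groups lost it as well (limma adjusted p = 0.118). In vehicle the difference passed when only the vehicle groups were fitted (limma adjusted p = 0.000615) or with the number series as a covariate (limma adjusted p = 0.0287).

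C3ar1, the receptor gene for C3a, had 5684, 6552, 6318 and 5744 normalized counts in Brg1 siRNA Dex+LPS libraries, against 3850, 3644, 3907 and 3463 in control siRNA Dex+LPS libraries. It had 14358, 14099 and 13360 in Brg1 siRNA LPS libraries, against 7750, 7742 and 7143 in control siRNA LPS libraries. In vehicle it had 25743, 25330 and 25422 with Brg1 siRNA, against 22502, 24243 and 23017 with control siRNA. No 2 groups overlapped, and levels were lowest under Dex+LPS, higher under LPS and highest in vehicle, with Brg1 siRNA above control siRNA inside each treatment. The knockdown log2 fold change was 0.71 (SE 0.053, limma adjusted p = 1.24e-08) under Dex+LPS and 0.89 (SE 0.061, limma adjusted p = 6.75e-09) under LPS, and 0.13 in vehicle did not pass (SE 0.061, limma adjusted p = 0.147; 0.039 when only the vehicle groups were fitted). The effect under LPS exceeded that in vehicle by 0.75 (SE 0.087, limma adjusted p = 1.44e-05). The effect under Dex+LPS differed from that under LPS by -0.18, which did not pass (95% interval -0.35 to -0.01, limma adjusted p = 0.286).

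C5ar1, the receptor gene for C5a, had 8980, 8759, 9412 and 12777 normalized counts in Brg1 siRNA Dex+LPS libraries, against 6608, 8452, 7311 and 9896 in control siRNA Dex+LPS libraries. It had 7124, 9486 and 7102 in Brg1 siRNA LPS libraries, against 4714, 4546 and 5826 in control siRNA LPS libraries. In vehicle it had 2581, 2798 and 2791 with Brg1 siRNA, against 4669, 4466 and 4496 with control siRNA. The highest value of each LPS and Dex+LPS group was the library of the higher number series, and the arms overlapped only under Dex+LPS. Brg1 siRNA was higher under LPS by 0.65 ± 0.153 on the log2 scale (SE, limma adjusted p = 0.00317) and lower in vehicle (-0.74 ± 0.153, limma adjusted p = 0.00185), a difference between effects of 1.39 (SE 0.217, limma adjusted p = 0.000308). Under Dex+LPS the difference of 0.31 did not pass (SE 0.133, limma adjusted p = 0.084). It passed without control siRNA Dex+LPS replicate 4 (0.41, limma adjusted p = 0.023), without the whole higher series (0.29, limma adjusted p = 0.00733) and with the series as a covariate (0.31, limma adjusted p = 0.000443).

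Serping1, the gene of C1 inhibitor, was near the lower limit of the measurement, and it passed the filter of 10 normalized counts in 3 libraries only through the control siRNA LPS group. It had 2.3, 1.1, 3.2 and 1.9 normalized counts in Brg1 siRNA Dex+LPS libraries, against 3.6, 5.3, 6.1 and 3.1 in control siRNA Dex+LPS libraries. It had 5.0, 8.7 and 3.4 in Brg1 siRNA LPS libraries, against 12.4, 15.0 and 18.2 in control siRNA LPS libraries, and no read in any of the 6 vehicle libraries. The arms did not overlap under LPS, where 14 reads in all were found with Brg1 siRNA and 41 with control siRNA. Because the control siRNA LPS group alone brought Serping1 into the test, its differences are given with no test. The knockdown log2 fold change was -1.34 under LPS and -0.84 under Dex+LPS.

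LPS changed different complement genes in opposite directions, and the share of members that passed was near that of all genes. With Brg1 siRNA, 7 of the 8 members other than Serping1 passed, 4 higher and 3 lower, against 72.8% of all genes (35.4% higher and 37.4% lower). With control siRNA 6 passed, 2 higher and 4 lower, against 73.0% (36.0% higher and 37.0% lower). C3 rose by a log2 fold change of 3.80 with Brg1 siRNA (SE 0.092, limma adjusted p = 6.14e-17) and 3.89 with control siRNA (SE 0.092, limma adjusted p = 4.74e-17). Cfb rose by 3.81 with Brg1 siRNA and 8.62 with control siRNA (3.66 and 6.52 with C2 and Gm20547 added). Serping1 had no read in vehicle libraries, and under LPS it had 14 reads with Brg1 siRNA and 41 with control siRNA. Against a floor of 3 reads over the 3 vehicle libraries, the LPS values were 6.96-fold and 18.04-fold that floor. The floor covers counting error in vehicle only, not that of the LPS reads, so these folds are a description. The control siRNA LPS group also brought Serping1 past the filter. The 2 LPS responses use different libraries, and their differences are the LPS interactions given above.

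C3ar1 fell with LPS in both arms, with a log2 fold change of -0.87 with Brg1 siRNA (limma adjusted p = 3.83e-10) and -1.62 with control siRNA (limma adjusted p = 4.17e-14). C5ar1 rose by 1.52 with Brg1 siRNA (SE 0.153, limma adjusted p = 5.7e-08), whereas with control siRNA the change was 0.14 and did not pass (95% interval -0.18 to 0.46), and was -0.44 (limma adjusted p = 0.0198) with plain library totals. C1qa rose by 0.55 with Brg1 siRNA (SE 0.098, limma adjusted p = 6.79e-05) and fell by 0.33 with control siRNA (SE 0.098, limma adjusted p = 0.0063). Scaling by plain library totals moved the median of all genes by -0.72 with Brg1 siRNA and -0.61 with control siRNA, and on that scale the C1qa response with Brg1 siRNA was -0.13 (limma adjusted p = 0.219), still above that median. C1qb had a change of 0.07 with Brg1 siRNA that did not pass (-0.61, limma adjusted p = 8.76e-06, with plain library totals), and it fell by 0.31 with control siRNA (limma adjusted p = 0.00513). C1qc fell by 0.25 with Brg1 siRNA (limma adjusted p = 0.0444) and fell by 0.53 with control siRNA (limma adjusted p = 0.000279). The C1qc call with Brg1 siRNA was lost without any 1 of 5 of its 6 libraries, all but LPS replicate 2 (-0.28 to -0.20, adjusted p of 0.0576 to 0.157). Cfp fell by 0.44 with Brg1 siRNA (limma adjusted p = 0.022), a call lost without vehicle replicate 2 or LPS replicate 3 (-0.43 to -0.32, adjusted p of 0.0525 to 0.118), and its change of -0.20 with control siRNA did not pass (limma adjusted p = 0.282) except with the number series as a covariate (-0.32, limma adjusted p = 0.0177) or with plain library totals (-0.78, limma adjusted p = 0.000492).

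**Figure D4:**
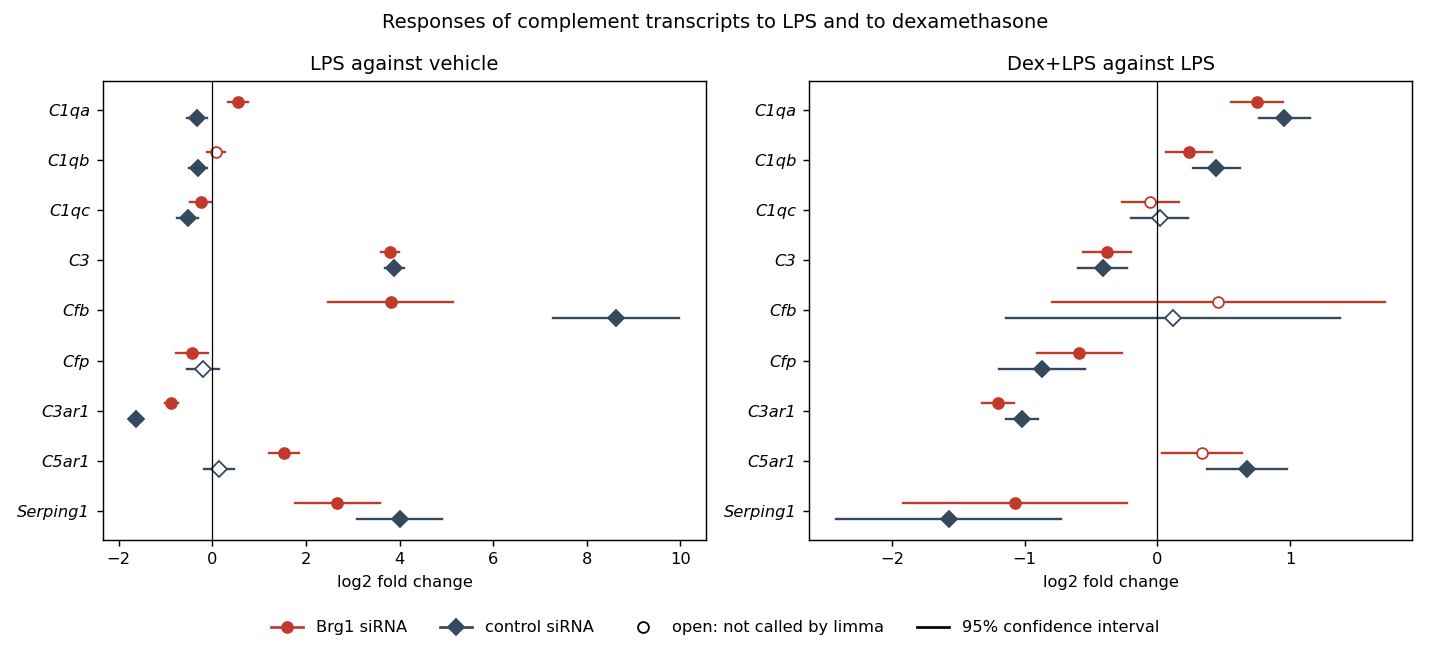
Log2 fold changes of the 9 complement genes for LPS against vehicle (left) and Dex+LPS against LPS (right), with Brg1 siRNA (red circles) above control siRNA (dark blue diamonds) for each gene, and 95% confidence intervals from limma. Open symbols did not pass, and the Serping1 points are a description only. The LPS responses of C1qa, C3ar1, C5ar1 and Cfb differ between the arms past the threshold, and the arms' intervals overlap for every gene in the dexamethasone panel.

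For the change of the LPS response with knockdown, 4 of the 8 passed, 3 higher and 1 lower, against 11.4% of all genes (6.39% higher and 5.05% lower): C1qa, C3ar1 and C5ar1 were higher and Cfb lower. This share, too, describes members chosen with earlier results of these data known. C1qb, at 0.38, missed the threshold (limma adjusted p = 0.0614) and passed in DESeq2 (adjusted p = 0.0325), when only the 4 groups were fitted (limma adjusted p = 0.00324) and with the number series as a covariate (limma adjusted p = 0.0365).

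Dexamethasone added to LPS came with higher C1qa and C1qb and lower C3, Cfp and C3ar1. With Brg1 siRNA, 5 of the 8 passed, 2 higher and 3 lower, against 44.4% of all genes (21.3% higher and 23.0% lower). With control siRNA 6 passed, 3 higher and 3 lower, against 48.7% (23.4% higher and 25.2% lower). C1qa rose by 0.75 with Brg1 siRNA (SE 0.092, limma adjusted p = 2.47e-06) and 0.96 with control siRNA (SE 0.092, limma adjusted p = 9.62e-08). C1qb rose by 0.24 with Brg1 siRNA (limma adjusted p = 0.0274) and 0.44 with control siRNA (limma adjusted p = 0.000255). The C1qb call with Brg1 siRNA was lost without LPS replicate 1, LPS replicate 3 or Dex+LPS replicate 4 (0.19 to 0.25, adjusted p of 0.0565 to 0.106). C1qc, in contrast, had changes of -0.05 with Brg1 siRNA and 0.02 with control siRNA, neither past the threshold, with 95% intervals of -0.27 to 0.16 and -0.20 to 0.23. With plain library totals both C1qc changes passed, at 0.28 with Brg1 siRNA (limma adjusted p = 0.0339) and 0.31 with control siRNA (limma adjusted p = 0.0174). On that scale the median of all genes was 0.31 with Brg1 siRNA and 0.28 with control siRNA.

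C3ar1 fell by 1.20 with Brg1 siRNA (SE 0.057, limma adjusted p = 1.02e-11) and fell by 1.02 with control siRNA (SE 0.057, limma adjusted p = 6.23e-11) when dexamethasone was present. C3 fell by 0.38 with Brg1 siRNA (limma adjusted p = 0.0015) and fell by 0.41 with control siRNA (limma adjusted p = 0.00066). Cfp fell by 0.59 with Brg1 siRNA (limma adjusted p = 0.00434) and fell by 0.87 with control siRNA (limma adjusted p = 0.000126). Plain library totals moved the median of all genes by 0.31 with Brg1 siRNA and 0.28 with control siRNA, and there the C3 changes were -0.05 and -0.12 and the Cfp change with Brg1 siRNA was -0.26, none past the threshold. The C5ar1 change of 0.33 with Brg1 siRNA did not pass (limma adjusted p = 0.0682) unless LPS replicate 2 was left out (0.47, limma adjusted p = 0.019), the higher number series was removed (0.35, limma adjusted p = 0.00315), the series was a covariate (0.37, limma adjusted p = 0.000113) or plain library totals were used (0.67, limma adjusted p = 0.00126), and with control siRNA C5ar1 rose by 0.67 (limma adjusted p = 0.000767). Serping1 values of -1.07 with Brg1 siRNA (14 reads under LPS and 8 under Dex+LPS) and -1.57 with control siRNA are given with no test. Cfb changes of 0.46 with Brg1 siRNA and 0.12 with control siRNA did not pass in the fit over all 6 groups. The Cfb value with Brg1 siRNA passed with edgeR, with DESeq2 and when only the groups compared were fitted. Summed with C2 and Gm20547 the value with Brg1 siRNA passed too (0.45, SE 0.101, limma adjusted p = 0.00122). The Cfb value with control siRNA passed under no alternative.

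For the change of the dexamethasone response with knockdown, 0 of the 8 passed in limma, against 3.97% of all genes (2.75% higher and 1.22% lower). At an unadjusted p under 0.05 there was 1, C3ar1 (p from limma 0.0422), and edgeR called 0 and DESeq2 1, Cfb (0.34, adjusted p = 0.0277). The dexamethasone and LPS comparisons share the LPS libraries.

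Levels of different genes were set against each other per kilobase of exon. C1qb ranked first of the 9 in every group, at 14860 ± 1002 normalized counts per kilobase in Brg1 siRNA Dex+LPS and 16084 ± 2407 in control siRNA Dex+LPS libraries (SD, n = 4 each). C3 ranked second in the 4 groups with LPS and seventh in both vehicle groups, where C3ar1 ranked second. The level of C5ar1 over that of C3ar1 per kilobase was 2.78 ± 0.65 in Brg1 siRNA and 3.67 ± 0.86 in control siRNA Dex+LPS libraries (SD, n = 4 each). It was 0.95 ± 0.16 and 1.12 ± 0.21 under LPS, and 0.18 ± 0.01 and 0.33 ± 0.02 in vehicle (SD, n = 3 each). Its group means spanned a wider range across treatments than between siRNA arms.

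Across the 20 libraries, which share the 6 groups, log2 levels of C3 and Cfb were related with Pearson r = 0.91 (Spearman 0.36), those of Cfp and C3ar1 with r = 0.87 (Spearman 0.90) and those of C1qa and C5ar1 with r = 0.85 (Spearman 0.86). The chain genes C1qa and C1qc had r = -0.29 and C1qa and C1qb 0.79. Outside the set, the genes nearest in pattern by Pearson r over the 20 libraries were Lcp2, Ifi205 and Tnfaip2 for C3 (0.996 each), Tec (0.996), Evi2a (0.995) and Dio2 (0.987) for C3ar1, and Galnt10 (0.954), Trp53inp2 (0.943) and 1110002J07Rik (0.942) for C1qa. Plxnd1 (0.937), Hmgb2 (0.928) and Tspan33 (0.927) were nearest to C5ar1, Hmgn2 (0.91) to C1qb, Gpx4 (0.939) to C1qc, Gpr31b (0.969) to Cfb, Aprt (0.961) to Cfp and Has1 (0.97) to Serping1. The libraries share their treatment groups, so these values only describe likeness of pattern.

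Few other complement genes were expressed enough to test. Of 15 further genes of the classical and lectin pathways 4 were tested, of 8 further alternative and terminal genes 0, of 17 regulators 5, and of 10 receptors and C1q-binding proteins 8. Their counts stand beside 19.0% higher and 15.3% lower of all genes under Dex+LPS, 17.3% and 15.8% under LPS, and 9.39% and 10.8% in vehicle. In the classical and lectin list 2 were higher with Brg1 siRNA under Dex+LPS, 1 under LPS and 2 in vehicle, and none was lower in limma, with a median log2 fold change of 0.32, 0.01 and 1.02 in that order. Fcna, which encodes the lectin pathway recognition protein ficolin A, had 405.5 ± 30.2 normalized counts in Brg1 siRNA and 182.4 ± 20.7 in control siRNA Dex+LPS libraries (SD, n = 4 each), 469.1 ± 5.5 and 201.2 ± 10.04 under LPS, and 533.2 ± 21.4 and 254.2 ± 64.1 in vehicle (SD, n = 3 each). Its knockdown log2 fold change was 1.15, 1.22 and 1.09 in that order (largest limma adjusted p = 7.85e-06). C1ra, which encodes the protease C1r, rose by 0.75 under Dex+LPS (limma adjusted p = 8.19e-05) and 0.94 in vehicle (limma adjusted p = 6.55e-05), and its value of 0.25 under LPS did not pass.

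Among the receptors and C1q-binding proteins, 1 was higher and 4 lower with Brg1 siRNA under Dex+LPS, 1 higher and 3 lower under LPS, and 1 higher and 3 lower in vehicle, with medians of -0.09, -0.37 and -0.05. Itgax, the CD11c subunit of complement receptor 4, had 605.1 ± 38.7 normalized counts in Brg1 siRNA against 1998.6 ± 75.7 in control siRNA Dex+LPS libraries (SD, n = 4 each), and its log2 fold change was -1.72 there, -1.29 under LPS and -2.15 in vehicle (largest limma adjusted p = 7.95e-10). Cd93, once described as a C1q receptor, was higher by 1.07, 1.36 and 0.88 (largest limma adjusted p = 2.69e-07). C1qbp, a mitochondrial protein that binds C1q heads, was lower by log2 fold changes of -0.58, -0.89 and -0.35 (largest limma adjusted p = 0.032), and Calr, the chaperone calreticulin, by -0.39 under Dex+LPS and -0.56 in vehicle, while -0.22 under LPS did not pass. Of the regulators, 1 was higher under Dex+LPS, 2 under LPS and 1 in vehicle, with none lower and medians of 0.31, 0.61 and -0.09. Cr1l, the mouse membrane regulator Crry, had log2 fold changes of 0.35, 0.62 and 0.35 (largest limma adjusted p = 0.00848), and Cd59a, which blocks the membrane attack complex, had 0.61 under LPS (limma adjusted p = 0.0201). Of 16 interferon-stimulated genes, all tested, 16 were higher with Brg1 siRNA under Dex+LPS, 6 under LPS and 14 in vehicle, with none lower. Of all genes, 19.0%, 17.3% and 9.39% were higher in that order. The part of interferon signalling in the complement values was not tested.

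**Figure D5:**
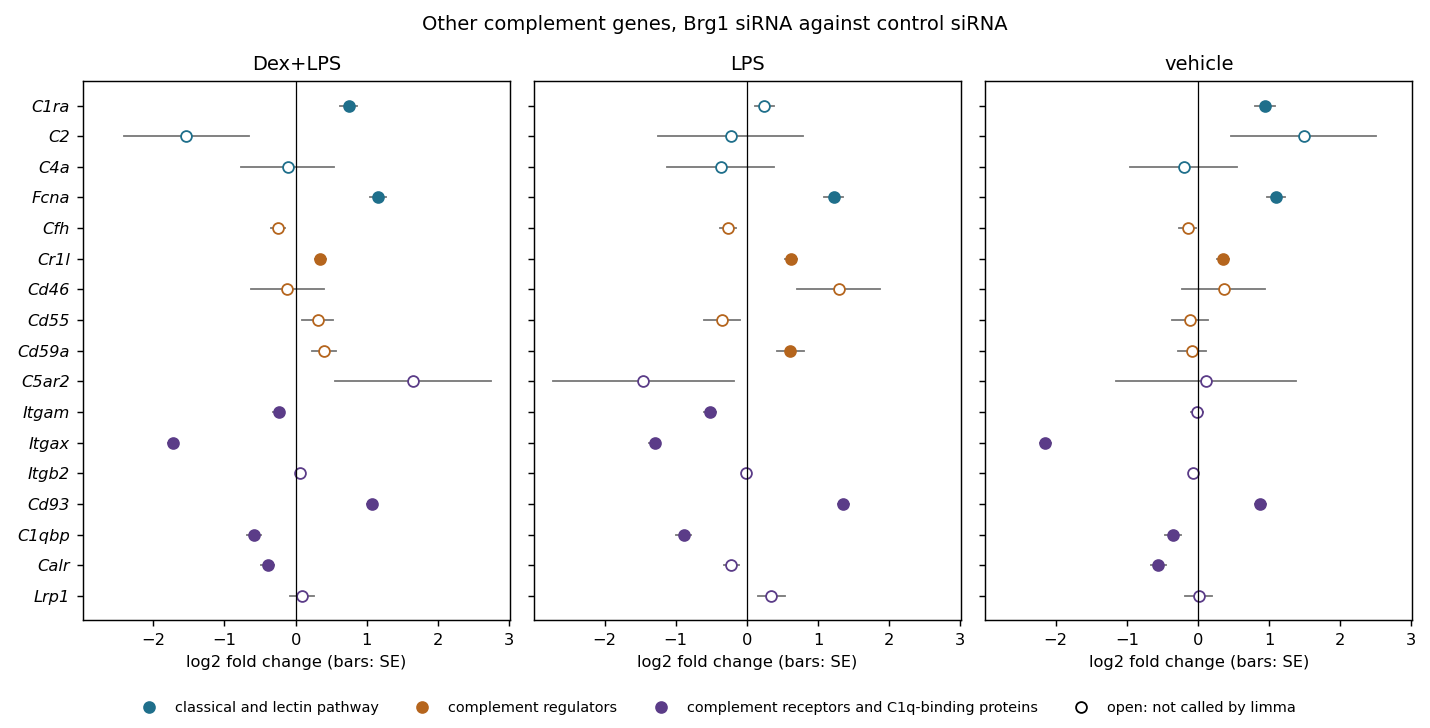
Log2 fold change, Brg1 siRNA against control siRNA, of the 17 other complement genes tested, under Dex+LPS, LPS and vehicle, with standard errors from limma and colours for the 3 lists. Filled points passed. Fcna and Cd93 lie right of 0 and Itgax left of 0 in all 3 panels.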

How the data were processed

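The deposited data are a single table covering 17787 genes, whose 20 sample columns give normalized signal, per the file headers from a DESeq normalization, beside the authors' own log2 fold changes, standard errors (unit score here), p-values and adjusted p-values, deposited for 7 comparisons and not printed here. The submitters' processing notes list R 4.1.0, DESeq2, DESeq and Salmon 1.4.0 as tools, and as genome builds GRCm38.p6 and mm10. The labels' protocols name a stranded kit, and the strand setting of the counting is not given in the sources used here. Low values step in units of 1 read, so whole reads were recovered: 99.953% of values came out whole within 0.01.

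Genes with at least 10 normalized counts in 3 libraries (12061, all 9 members among them) were fitted as log2(value + 1) with limma 3.58.1 (R 4.3.3), all 6 groups in 1 model, and adjusted by Benjamini-Hochberg. Alternatives used edgeR 4.0.16 and DESeq2 1.42.0 on the recovered reads (edgeR called 2008 genes higher and 2148 lower for the knockdown under Dex+LPS, 1967 and 1901 under LPS, 1130 and 1373 in vehicle), other pseudocounts, filters and scalings, and omitted libraries. The fit was also run on simulated counts, drawn independently for each library. Those counts lack the likeness between libraries of the higher number series, so that run does not measure error rates in these data. Replicates within a group differed by more than counting noise (chi-square per gene 4.2 to 43.4 over 24 pairs). 1 row has no gene name. Named genes outside the set passed in a knockdown comparison, up to 4 per list by size of change, or were the 3 nearest in pattern. The members and gene lists were chosen with earlier results of these data known. Annotation was GENCODE vM21 and promoters were RefSeq's for GRCm38.p6.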

Additional observations from a re-analysis of the deposited data

Results flagged for a closer look

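C5ar1 in Brg1 siRNA Dex+LPS libraries had 1 library far from the others, at 12777 normalized counts beside 8759 to 9412. The gap was 0.837 of the group's range, above Dixon's 95% critical value for 4 samples, in 1 of 18 gene and group pairs examined, where chance gives about 1 in 20. That library, replicate 4, belongs to the higher number series, and its part in the value was not tested.

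The effect of the knockdown differed between LPS and vehicle for 4 members by limma's interaction term: C1qa (0.87), C3ar1 (0.75), C5ar1 (1.39) and Cfb (-4.82). Cfb summed with C2 and Gm20547 gave -2.87. C1qa and C5ar1 were lower with Brg1 siRNA in all 3 vehicle libraries than in any control library, and higher in all 3 LPS libraries.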

How the results depend on the processing

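Over 1514 alternative values for the members, 1416 kept direction and side of the threshold, 50 lost a call, 29 gained one and 19 changed sign. Of these 19, 4 had a call in 1 of the 2 fits, and all 4 came from plain library totals: the LPS response with Brg1 siRNA of C1qa (-0.13) and C1qb (-0.61), that of C5ar1 with control siRNA (-0.44), and the dexamethasone response of C1qc with Brg1 siRNA (0.28). The other 15 were called in neither fit. With plain library totals they were the knockdown values of Cfp (-0.03) and C1qb (-0.038) under LPS and of C1qc under Dex+LPS (-0.023), and 1 each came from the number series covariate (C5ar1, LPS response with control siRNA, -0.002), the replicate block (C1qc, dexamethasone response with control siRNA, -0.039) and removing the higher series (C3, dexamethasone interaction, -0.035). Leaving out 1 library gave the remaining 9, with ranges of -0.015 to 0.232 (Cfp, knockdown under LPS), -0.07 to 0.088 (C1qc, dexamethasone response with control siRNA), and -0.035 to 0.099 (C3) and -0.146 to 0.016 (C1qc) for the dexamethasone interaction. That scaling called 1334 genes higher and 2919 lower for the knockdown under LPS, beside 2089 and 1906, and 1653 and 2847 under Dex+LPS, beside 2289 and 1842. Members called for the knockdown under Dex+LPS were 2 with edgeR and 2 when only those groups were fitted, beside 4. Over all genes edgeR called 2008 higher and 2148 lower of 12061, and the fit of those groups 1690 and 1364 of 12054. For the dexamethasone interaction 1 was called with DESeq2, 1 with those groups only and 1 with the number series as a covariate, beside 0. Over all genes these 3 fits called 474 higher and 257 lower, 230 and 86, and 460 and 270, beside 332 and 147. The tally of 1514 values includes those of Serping1, which is given with no test above. Of the 50 lost calls, 3 were Serping1 values for the knockdown under LPS and 11 for its dexamethasone response with Brg1 siRNA. The sign changes and the counts of members in this section hold no Serping1 call. Leaving out 1 replicate changed the knockdown calls of C1qb in vehicle and of Cfp and C5ar1 under Dex+LPS. It also changed the LPS calls of Cfp and C1qc and the dexamethasone calls of C1qb and C5ar1, all with Brg1 siRNA. In the other comparisons no call of a member other than Serping1 changed. The cause of the changes in this section was not tested.

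Replicate numbers gave no sign of pairing the samples: over 46 same-numbered pairs deviations correlated at -0.166 to 0.406, with 2 over 0.1. Their median was -0.003, beside -0.0025 over 120 pairs with other numbers. This check cannot show that pairing is absent. The 6 pairs of libraries that were both in the higher number series correlated at 0.207 to 0.406, whereas the 54 pairs with 1 in each series had a median of -0.059. Over the members other than Serping1, the fit with the replicate number as a block called 5 under Dex+LPS (C5ar1 gained), 4 under LPS and 5 in vehicle. It called 4 for the dexamethasone response with Brg1 siRNA (C1qb lost). Over all genes that fit called 2396 higher and 1951 lower under Dex+LPS, 2204 and 2018 under LPS, and 1235 and 1411 in vehicle. For that dexamethasone response it called 2592 and 2939. Serping1 gave no value where the filter removed it, with a minimum of 50 or without a control siRNA LPS library. Depth limits Serping1 and Cfb in vehicle, where single reads move the values.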
